A study of Mus musculus with 36 samples.

Results

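The comparison described here is of whole brain at postnatal day 3 (P3) between mice labelled Myt1l heterozygote and their wild-type counterparts, and its members are the 16 libraries of that age among the 36 libraries of the study. The 8 heterozygote and 8 wild-type libraries were chosen by the age and genotype that their sample names give, and no measured value was used. All mice were male, of the C57BL/6J strain and untreated. The labels name the gene that is heterozygous but not the kind of allele, and they name no transgene or other mutation that the wild-type mice also carry. Litters of mixed genotype were raised together, but the labels do not tie a sample to a litter, so the p-values measure the spread between these samples. The other 20 libraries are 5 heterozygote and 5 wild-type brains each of P21 and P56 mice, and they are used here only to ask whether a genotype difference at P3 differs from that at the later ages.

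MYT1L is a zinc-finger transcription factor of the MYT family, made mainly in neurons from the time they leave the cell cycle. It binds DNA through clustered zinc fingers that recognise the short core AAGTT, and it recruits SIN3 and histone deacetylase complexes to repress genes of progenitors and of cell types other than neurons. Loss of 1 copy of the human gene is a cause of intellectual disability with autism and obesity. In the newborn mouse brain most cortical neurons have already been born, while cerebellar granule cells and glia are still dividing and myelination has barely begun.

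The Myt1l gene (ENSMUSG00000061911) lies on the plus strand of chromosome 12, at chr12:29528384-29923213 in build GRCm38. Since Myt1l was the 1 gene called below, the sequences at its starts are shown. RefSeq (GRCm38.p6) lists 5 starts for it, of which the most upstream and the 2 with a match to the MYT core are printed, each as 300 bases from 250 before the start to 50 after, on the plus strand, with AAGTT and its complement on the other strand, AACTT, in capitals.
Myt1l start at chr12:29528134-29528433: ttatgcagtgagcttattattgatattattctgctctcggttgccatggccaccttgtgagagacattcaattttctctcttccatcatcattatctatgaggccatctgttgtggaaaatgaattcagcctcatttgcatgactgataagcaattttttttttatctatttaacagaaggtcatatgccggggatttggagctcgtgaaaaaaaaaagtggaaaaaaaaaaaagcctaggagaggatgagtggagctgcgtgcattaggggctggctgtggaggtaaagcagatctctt
Myt1l start at chr12:29534655-29534954: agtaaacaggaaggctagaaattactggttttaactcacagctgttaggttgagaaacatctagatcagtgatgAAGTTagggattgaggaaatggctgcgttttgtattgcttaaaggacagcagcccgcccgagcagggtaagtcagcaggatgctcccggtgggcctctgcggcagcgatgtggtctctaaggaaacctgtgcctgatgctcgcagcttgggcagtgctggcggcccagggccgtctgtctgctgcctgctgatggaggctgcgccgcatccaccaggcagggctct
Myt1l start at chr12:29534972-29535271: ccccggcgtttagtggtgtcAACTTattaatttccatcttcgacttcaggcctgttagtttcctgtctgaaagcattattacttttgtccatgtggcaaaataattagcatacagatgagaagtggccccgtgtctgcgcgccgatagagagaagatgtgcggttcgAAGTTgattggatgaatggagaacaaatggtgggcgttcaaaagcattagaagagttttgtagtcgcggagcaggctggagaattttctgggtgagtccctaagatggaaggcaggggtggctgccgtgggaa
The first window holds no match, the middle one holds 1 on the plus strand, and the last holds 1 on each strand. The motif was searched on both strands and overlaps no other motif searched. It occurs in 12918 of 32851 mouse promoter windows of this length (39.3%), and in 2 of the 5 windows of Myt1l. A match is a description of the letters and not of binding.

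The unit of every level below is the normalized count, an estimated read count per gene divided by a factor for its library. Totals ran from 31707059 to 33555147 normalized counts over the 16 libraries. Markers of the labelled tissue were present in every library, such as the neuronal cytoskeleton gene Tubb3 at 52840 to 65473 and the astrocyte glutamate transporter Slc1a3 at 13062 to 17735. The growth hormone gene Gh of the pituitary was listed at 0 in all 16 libraries, and the myogenic factors Myod1 and Myog were not in the table. Other genes of those lists were present in every library. Pomc, listed under both the pituitary and the hypothalamus, was at 17.1 to 36.3, and the muscle actin Acta1 was at 85.7 to 202. Each P3 sample name also ends in a number whose meaning is not given, and the libraries numbered 1, 2 and 3 (wild-type replicates 1 and 2 and heterozygote replicate 1) stood apart from the other 13. On the first principal component, which held 19.1% of the variance, they lay at -2.65, -1.73 and -1.24 SD, and the other 13 between -0.3 and 0.77 SD. Myelin basic protein (Mbp) was at 19288, 15537 and 15166 in these 3 libraries and at 3618 to 7074 in the others. Hemoglobin Hbb-bs was at 5533, 5938 and 5169 in the 3 and at 576 to 3683 in the others. The synaptic vesicle gene Syp was at 26670, 24513 and 23312 against 16629 to 19966, whereas Dcx, a microtubule protein of young neurons, was at 29402, 31922 and 29793 against 35364 to 43099. Of 36 gene lists, the mean of all 3 libraries lay above all other 13 in 10 and below all other 13 in 3. These 3 libraries had already been seen to stand apart in an earlier analysis of these data. The values above describe that separation and do not test it. Since 2 of the 3 are wild-type and 1 is heterozygote, they weigh unequally on the groups, so Myt1l, the counts and the main gene lists are given with them and without them (7 heterozygote and 6 wild-type libraries). A single gene's difference is given without them where it moved by more than 1.5 times or to the other side of 0.

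**Figure D1:**
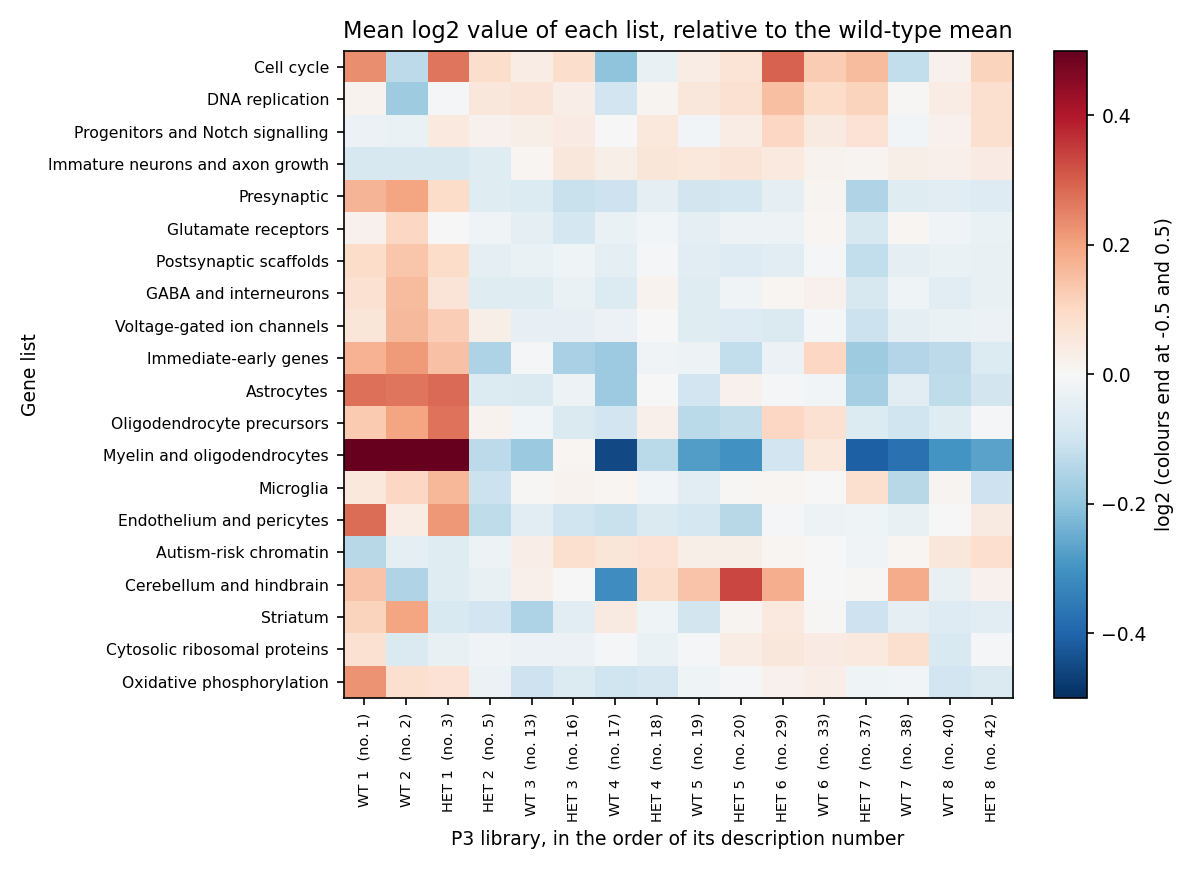
Mean log2 value of 20 gene lists (rows) in each of the 16 P3 libraries (columns, in the order of the number in the sample name), relative to the mean of the 8 wild-type libraries. The 3 leftmost libraries stand out in both genotypes, with the myelin list at 0.72 to 0.82 against -0.45 to 0.05 in the other 13.

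Myt1l RNA was higher in every library labelled heterozygote than in any wild-type library at P3. The 8 heterozygote-labelled libraries held 14830, 16219, 16205, 16082, 16585, 14184, 14695 and 16474 normalized counts of Myt1l. The 8 wild-type libraries held 10450, 10812, 10967, 11366, 12051, 10910, 11714 and 11613. The groups did not overlap: the lowest heterozygote-labelled library was 2133 above the highest wild-type one. The means were 15659 ± 934 and 11235 ± 538 (SD, n = 8 each), a 1.39-fold difference with a 95% interval of 1.32 to 1.48. On the log2 scale, after adding 1 to each value, the difference was 0.48 (SE 0.04), with a limma adjusted p of 2.53e-06. An exact two-sided permutation test of the 16 values gave p = 1.55e-04, the smallest that 12870 assignments allow. Without the libraries numbered 1 to 3 the fold was 1.38 (1.304 to 1.456), the limma adjusted p was 3.16e-06, and the exact two-sided permutation p was 5.83e-04, again the smallest that its 1716 assignments allow. The gene named in the label was thus at a higher and not a lower RNA level in the libraries labelled heterozygote. The values are of total Myt1l RNA, and the table does not separate transcripts or alleles.

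**Figure D2:**
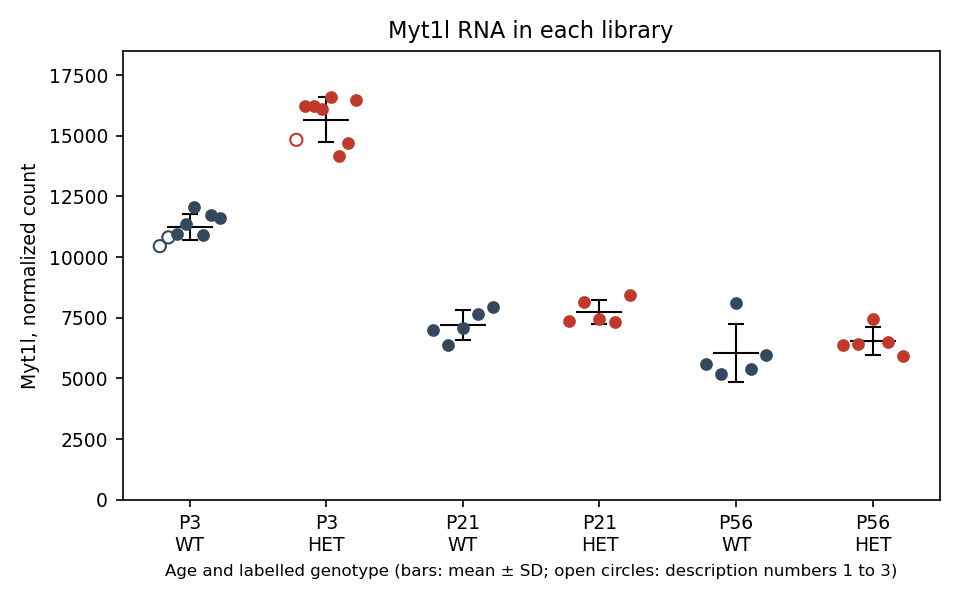
Normalized counts of Myt1l in each of the 36 libraries by age and labelled genotype, as points with the mean and SD as bars. Open circles are the P3 libraries numbered 1 to 3, and the P3 groups do not overlap (14184 to 16585 against 10450 to 12051) while the P21 and P56 groups do.

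The other members of the MYT family were not called. Myt1, the founding member, which acts in progenitors and oligodendrocyte precursors, was at 1023 to 1335 in heterozygote-labelled and 1063 to 1350 in wild-type libraries, and its means were 1197 ± 90.9 and 1199 ± 104 (SD, n = 8 each), a log2 difference of -0.001 that was 0.0061 without the libraries numbered 1 to 3. St18, the third member, was at 397 to 675 and 369 to 688, a log2 difference of 0.07 with a 95% interval of -0.24 to 0.38. For Myt1 that interval was -0.12 to 0.12, and neither interval reaches the 0.48 of Myt1l. Of 8 genes of the SIN3 and histone deacetylase complexes that MYT1L works with, 0 were called, beside 0.00576% of all genes. For 8 genes, 0 is near that background. The member of smallest p, the deacetylase Hdac1, was at 1287 to 1397 against 1069 to 1378, a log2 difference of 0.09 (SE 0.05). Hdac3 and the scaffold Sin3a differed by -0.07 (SE 0.04) and -0.09 (SE 0.08).

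No gene close to Myt1l was called. Within 2 Mb there were 22 other tested genes, of which 6 were higher and 16 lower in heterozygote-labelled brains, and their log2 differences ran from -0.39 to 0.28 around a median of -0.02. By limma 0 of them were called, beside 0.00576% of all genes, and 0 had an unadjusted p under 0.05, beside 2.31% of all genes higher and 2.72% lower at that p. For 22 genes, 0 is near that background. The nearest protein-coding gene, Pxdn, which encodes a collagen-crosslinking peroxidase, starts 14395 bases beyond Myt1l. It was at 3760, 4322 and 4832 (lowest, median, highest) against 2607, 4389 and 4609, a log2 difference of 0.12 (SE 0.11) that became -0.01 (SE 0.05) without the libraries numbered 1 to 3. On the other side, Eipr1 and Trappc12, both of membrane trafficking, differed by -0.03 (SE 0.07) and -0.06 (SE 0.04) on the log2 scale, and Eipr1 by 0.01 (SE 0.06) without the 3 libraries. Gm20208, a noncoding transcript on the minus strand over the start of Myt1l, was at 12.2 against 14.4 on average. The kit keeps no strand, so reads there cannot be assigned to a strand. On chromosome 12 as a whole, 1 of 655 tested genes was called, Myt1l itself.

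**Figure D3:**
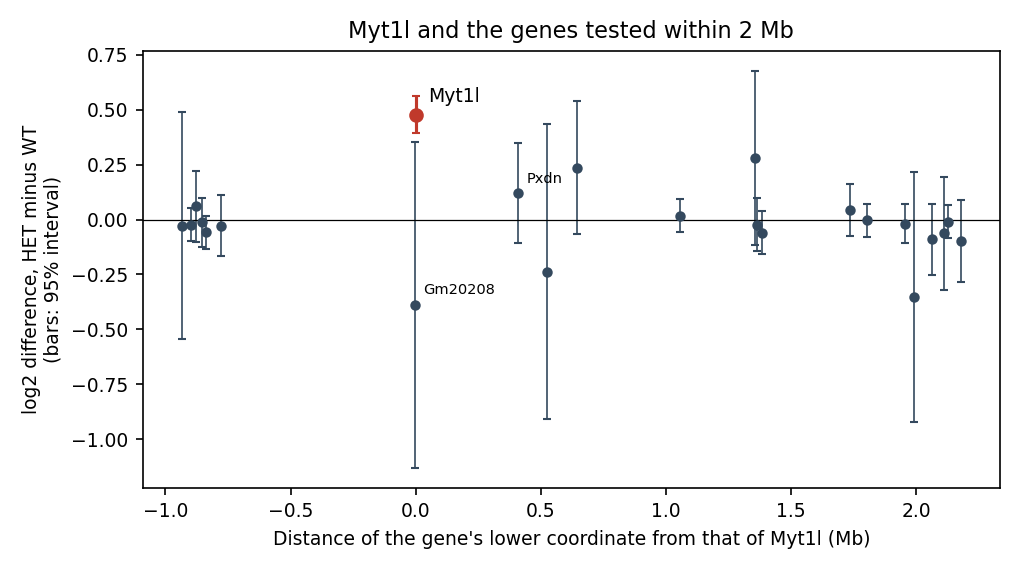
Log2 difference between heterozygote-labelled and wild-type P3 brains (vertical, with 95% intervals) of Myt1l and the 22 genes tested within 2 Mb, by the distance of each gene's lower coordinate from that of Myt1l in Mb (horizontal). The interval of Myt1l is clear of 0, and those of its neighbours reach 0.

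Across the brain at P3, Myt1l was the only gene of 17371 tested that limma called at an adjusted p under 0.05 (0.00576% of genes), and it was again the only one of 17371 without the libraries numbered 1 to 3 (0.00576%). The next smallest adjusted p was 0.808 with all libraries and 0.964 without the 3. At an unadjusted p under 0.05, 402 genes were higher (2.31%) and 473 lower (2.72%) in heterozygote-labelled brains. Without the 3 libraries these counts were 427 (2.46%) and 399 (2.3%). The 2 groups had ranges that did not overlap in 6 genes (0.0345%) with all libraries, and in 21 (0.121%) without the 3, where fewer libraries make separation easier. Over all tested genes the median log2 difference was -0.0049, with 8241 genes higher and 9130 lower.

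The precision of these differences was as follows. Among the 13182 genes with a mean of at least 100, the 95% interval of the log2 difference reached 0.12 to either side of the estimate in the median gene and 0.23 at the 90th percentile. Log2 differences beyond 1 in either direction occurred in 22 genes, and 21 of these were listed at 0 in at least 1 P3 library. Of the 22, the annotation gives 10 as pseudogenes, and the smallest limma adjusted p among them was 0.903.

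**Figure D4:**
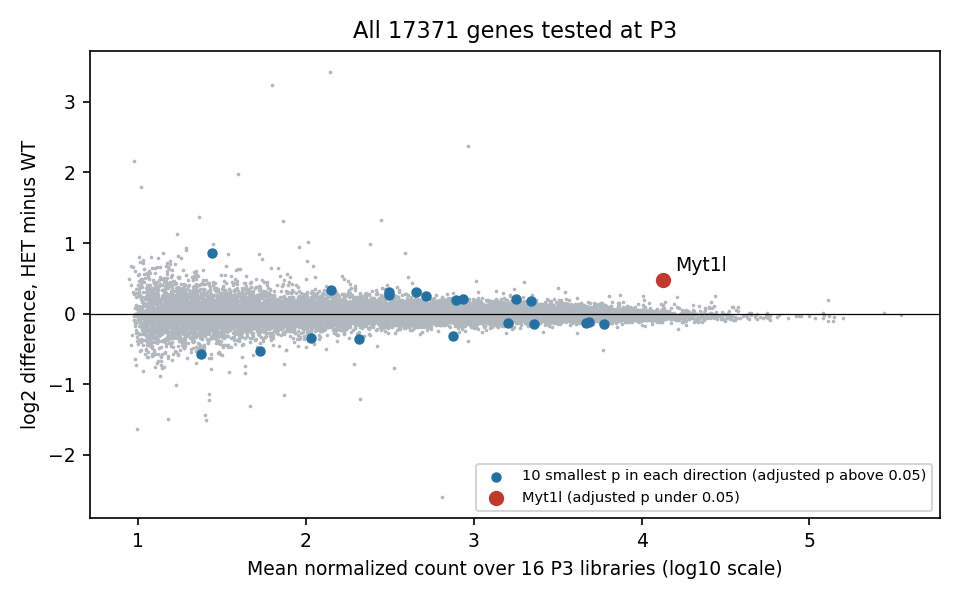
Log2 difference between heterozygote-labelled and wild-type P3 brains (vertical) against the mean normalized count over the 16 libraries (horizontal, log10 scale) for all 17371 genes tested. Myt1l (red) lies at 0.48, and the 20 genes shown in blue, the 10 of next smallest p in each direction, lie between -0.57 and 0.85.

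Beyond Myt1l, the 10 genes of smallest p in each direction did not pass the test (limma adjusted p of 0.808 or more), and they are described for their values. On the higher side, 3 have to do with genome copying and repair or with protein synthesis. Lars, the cytosolic leucyl-tRNA synthetase that charges leucine for translation, was at 2181, 2303 and 2543 (lowest, median, highest) in heterozygote-labelled and 1863, 2067 and 2158 in wild-type libraries. These ranges did not overlap, and the log2 difference was 0.18 (SE 0.04), or 0.17 without the libraries numbered 1 to 3. Pold1, the catalytic subunit of DNA polymerase delta, was at 425, 487 and 587 against 326, 400 and 461, a log2 difference of 0.31 (SE 0.08). Pms2, a mismatch repair protein, was at 764, 831 and 906 against 643, 732 and 795, a log2 difference of 0.20 (SE 0.05).

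The other genes on the higher side were of mixed function. Ptpru, a receptor tyrosine phosphatase of cell adhesion, had the smallest p after Myt1l (unadjusted 1.19e-04, adjusted 0.808) and was at 1833, 1920 and 2026 against 1485, 1678 and 1879. Its ranges overlapped only at their ends, and its log2 difference was 0.20 (SE 0.04). Svil, an actin-binding protein, the collagen chaperone Fkbp14, the metalloproteases Adamts6 and Adamts19 and the cation channel Trpm4 had log2 differences of 0.21, 0.30, 0.26, 0.33 and 0.25. Upp1, uridine phosphorylase of pyrimidine salvage, was at 21.9, 32.5 and 54.96 against 10.8, 17.9 and 30.3, the largest difference of the 10 at 0.85 (SE 0.22), and 1.02 (SE 0.24) without the 3 libraries.

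On the lower side, several genes act in neurons. Lmo4, a LIM-only transcription cofactor of the cortex, was at 4230, 4452 and 4677 in heterozygote-labelled and 4628, 4877 and 5161 in wild-type libraries, a log2 difference of -0.14 (SE 0.03). Grin3a, an NMDA receptor subunit of immature synapses, was at 5260, 5656 and 6109 against 5979, 6287 and 6608, a difference of -0.15 (SE 0.04). Nrg3, a neuregulin that signals through the receptor ERBB4, was at 1452, 1533 and 1581 against 1582, 1664 and 1805. The Nrg3 ranges met without overlapping, and the log2 difference was -0.14 (SE 0.03). Slc25a1, the mitochondrial citrate carrier that supplies carbon for lipid synthesis, was at 2056, 2143 and 2327 against 2272, 2422 and 2498, a difference of -0.15 (SE 0.03).

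The rest of the lower side was of mixed function. Spata32, a gene of spermatogenesis, was at 16.3, 18.9 and 21.5 against 24.6, 26.96 and 35.7, with no overlap and a log2 difference of -0.57 (SE 0.13). Its limma adjusted p was 0.808, and it was called (adjusted p = 0.0183) when limma's trend between level and variance was left out. The chloride channel Ano2, the folate transporter Slc46a1, the tetraspanin Tspan17, the antisense transcript Kcnmb4os2 and the LIM protein Crip2 had log2 differences of -0.53, -0.37, -0.32, -0.35 and -0.13. Cdc25b, a phosphatase that starts mitosis, and Fbxo21, a ubiquitin ligase subunit, complete the 6 genes of separate ranges, at 632 to 773 against 572 to 630 and at 5643 to 6192 against 6223 to 6571. Their log2 differences were 0.14 (SE 0.05) and -0.10 (SE 0.03), and 0.09 (SE 0.04) and -0.07 (SE 0.03) without the libraries numbered 1 to 3.

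Leaving out the libraries numbered 1 to 3 brought forward 3 other genes among the 5 of smallest p, each of the 5 with a limma adjusted p of 0.964. Csmd3, a large transmembrane protein of neurons, was at 857, 1176 and 1035 in the 3 libraries and at 1295 to 1635 in the other 13. With those 13 it was at 1295, 1371 and 1413 in heterozygote-labelled and 1455, 1565 and 1635 in wild-type libraries, a log2 difference of -0.18 (SE 0.04) without overlap, against -0.08 (SE 0.11) with all 16. Slc25a53, a mitochondrial carrier, differed by 0.26 (SE 0.06), and Robo4, a receptor of endothelial cells, by -0.29 (SE 0.07).

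Gene lists written from general knowledge of the brain were described by their counts and medians. No member of any list apart from Myt1l was called, beside 0.00576% of all genes. In bulk tissue, fewer cells of a type and less RNA per cell cannot be told apart. Genes of dividing cells were mostly higher. Of 40 cell cycle genes, 38 were higher and 2 lower in heterozygote-labelled brains, with a median log2 difference of 0.13, and 10 were higher at an unadjusted p under 0.05, beside 2.31% of all genes. Without the libraries numbered 1 to 3, 39 were higher and 1 lower, the median was 0.12, and 6 were higher at that p, beside 2.46%. The list's mean still varied widely between libraries of 1 genotype, from -0.20 in wild-type replicate 4 to 0.23 in wild-type replicate 1, relative to the wild-type mean, and the highest value was 0.30 in a heterozygote-labelled library.

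Named members of that list overlapped between the groups. Ccnd2, the cyclin of neural progenitors in G1 phase, was at 4458, 4594 and 4982 (lowest, median, highest) in heterozygote-labelled and 3869, 4303 and 5038 in wild-type libraries, a log2 difference of 0.11 (SE 0.04). The kinetochore protein Cenpf was at 653, 791 and 1136 against 528, 694 and 816, a difference of 0.30 (SE 0.13). Topoisomerase Top2a was at 1603, 1833 and 2066 against 1351, 1659 and 1893, a difference of 0.16 (SE 0.07). The proliferation marker Mki67, the kinase Cdk1 and the mitotic transcription factor Foxm1 differed by 0.11 (SE 0.08), 0.17 (SE 0.11) and 0.15 (SE 0.06), and Cdk1 by 0.09 (SE 0.11) without the 3 libraries.

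Of 38 DNA replication genes, 31 were higher and 7 lower, with a median of 0.07 and 5 higher at an unadjusted p under 0.05, beside 2.31% of all genes. Without the 3 libraries 29 were higher and 9 lower, with a median of 0.05 and 4 higher at that p, beside 2.46%. Besides Pold1, the single-strand binding protein Rpa2 was at 404, 461 and 481 against 374, 400 and 427, a log2 difference of 0.17 (SE 0.05). Gins3 and Mcm3, both of the replicative helicase, differed by 0.21 (SE 0.10) and 0.10 (SE 0.08), and Gins3 by 0.14 (SE 0.09) without the 3.

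Progenitor and Notch genes, which MYT1L is known to repress in cultured neurons, were higher in 25 and lower in 7 of 32, with a median of 0.06, or 0.05 without the 3 libraries at the same counts. The intermediate filament Vim of radial glia was at 4678, 5001 and 6036 against 3859, 4704 and 5256, a log2 difference of 0.15 (SE 0.06). It was the 1 of 32 members higher at an unadjusted p under 0.05, beside 2.31% of all genes, and without the 3 libraries 2 members were, beside 2.46%. The progenitor transcription factor Pax6 was at 979, 1037 and 1259 against 687, 919 and 1237, a difference of 0.19 (SE 0.10). The receptor Notch1 differed by 0.12 (SE 0.06), and by 0.06 without the 3. Numbl, of smaller p than Notch1 and Pax6, was lower, at -0.10 (SE 0.05), and at -0.06 without the 3. The progenitor factor Sox2 differed by 0.01 (SE 0.05). Hes1, the Notch effector that MYT1L is known to repress, was at 152, 173 and 239 against 135, 171 and 240. Its log2 difference was -0.0024 (SE 0.12), and 0.03 (SE 0.10) without the 3.

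Some regional and signalling lists were also mostly higher. In the olfactory bulb list 13 of 16 genes were higher (median 0.06), and 14 without the 3 libraries (median 0.08). At an unadjusted p under 0.05, 0 of them were higher and 1 lower, beside 2.31% and 2.72% of all genes. Without the 3 libraries, 3 were higher and 1 lower at that p, beside 2.46% and 2.3%. Of 31 cerebellum and hindbrain genes, 26 were higher and 5 lower both with and without the 3 libraries, with medians of 0.06 and 0.07. Among these 31, 2 were higher and 0 lower at an unadjusted p under 0.05, beside 2.31% and 2.72% of all genes. The counts were 1 and 0 without the 3 libraries, beside 2.46% and 2.3%. The Purkinje cell calcium channel Itpr1 was at 3467, 3719 and 4263 against 2971, 3482 and 3741, a log2 difference of 0.14 (SE 0.05), and the transcription factor Lhx1 differed by 0.19 (SE 0.08). Atoh1, Pcp2 and En2, the first 3 members of the list, differed by 0.16 (SE 0.19), 0.25 (SE 0.31) and 0.16 (SE 0.14). In the BMP, TGF-beta and hedgehog list 24 of 36 were higher (median 0.03), and 26 without the 3 libraries (median 0.06). The hedgehog target Gli1 was at 259, 340 and 401 against 138, 288 and 320, a difference of 0.34 (SE 0.15). The hedgehog co-receptor Boc differed by 0.13 (SE 0.05). Bmp4 and Smad1 of the same list differed by -0.04 (SE 0.21) and -0.02 (SE 0.04), and Bmp4 by 0.15 without the 3 libraries. At an unadjusted p under 0.05, 3 of the 36 were higher and 1 lower, beside 2.31% and 2.72% of all genes. Without the 3 libraries, 3 were higher and 0 lower at that p, beside 2.46% and 2.3%. Hedgehog drives the division of cerebellar granule cell precursors, and the share of hindbrain in each dissected brain was not measured. The mean of the cerebellum and hindbrain list ranged from -0.31 to 0.34 between the other 13 libraries, and its part in these differences was not tested.

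Synaptic genes were mostly lower in heterozygote-labelled brains, and less one-sidedly so without the libraries numbered 1 to 3. Of 42 presynaptic genes, 4 were higher and 38 lower, with a median log2 difference of -0.07 and 4 lower at an unadjusted p under 0.05, beside 2.72% of all genes. Without the 3 libraries, 15 were higher and 27 lower, the median was -0.02, and 3 were lower at that p, beside 2.3%. The list's mean was 0.17, 0.20 and 0.09 in those libraries and -0.15 to 0.01 in the other 13. The calcium sensor of vesicle release Doc2a was at 1392, 1573 and 1924 against 1491, 1817 and 2383, a difference of -0.21 (SE 0.08), and -0.17 without the 3. Its relative Doc2b and the active zone protein Erc1 differed by -0.13 (SE 0.05) and -0.08 (SE 0.03), and by -0.08 (SE 0.04) and -0.05 (SE 0.03) without the 3. Snap25, Syt1 and Syp, the first 3 members of the list, differed by -0.08 (SE 0.10), -0.11 (SE 0.09) and -0.07 (SE 0.09). Their differences were 0.0075, -0.05 and 0.0086 without the 3 libraries.

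With all libraries, the other synaptic lists and the channel list were less one-sided than the presynaptic list. Of 38 glutamate receptor genes, 14 were higher and 24 lower (median -0.03), and 15 and 23 without the 3 libraries (median -0.02). After Grin3a, the smallest p belonged to Grm7, a presynaptic metabotropic receptor, at 1534, 1659 and 1772 against 1618, 1747 and 1943, a difference of -0.11 (SE 0.04). The auxiliary subunit Neto1 differed by -0.11 (SE 0.04). Grin1, Gria2 and Grm5, the first 3 members of the list, differed by -0.11 (SE 0.08), 0.07 (SE 0.06) and -0.04 (SE 0.03). Their differences were -0.07, -0.0073 and -0.05 without the 3 libraries. Of 37 postsynaptic scaffold genes, 9 were higher and 28 lower (median -0.03), and 14 and 23 without the 3 libraries (median -0.03). That last median was below the presynaptic one of -0.02 without the 3. At an unadjusted p under 0.05, 4 scaffold genes were higher and 3 lower without the 3, beside 2.46% and 2.3% of all genes. The adhesion proteins Slitrk5 and Lrrtm1 differed by -0.12 (SE 0.04) and -0.15 (SE 0.06), and Lrrtm1 by -0.10 (SE 0.04) without the 3. The scaffold Dlg1 differed by 0.09 (SE 0.04). GABA and interneuron genes were 17 higher and 23 lower of 40, and 21 and 19 without the 3. The receptor subunit Gabrb1 differed by -0.11 (SE 0.04). Voltage-gated channel genes were 19 higher and 31 lower of 50, and 21 and 29 without the 3.

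Other neuronal lists gave small medians. Immature neuron and axon growth genes were 22 higher and 20 lower of 42 with all libraries (median 0.0029) and 12 and 30 without the 3 (median -0.02). Cortex and hippocampus genes were 11 higher and 19 lower of 30 in both, and 4 members were lower and 0 higher at an unadjusted p under 0.05, beside 2.72% and 2.31% of all genes. Without the 3, 5 were lower and 2 higher at that p, beside 2.3% and 2.46%. Besides Lmo4, Fezf2, which specifies deep-layer projection neurons, was at 633, 719 and 845 against 719, 831 and 876, a log2 difference of -0.18 (SE 0.06), and Lmo3 differed by -0.09 (SE 0.03). The cortical factor Tbr1 differed by -0.06 (SE 0.05), and by -0.09 (SE 0.05) without the 3. Etv1, another layer factor, listed here under the olfactory bulb, was at 1970, 2161 and 2325 against 2192, 2350 and 2565, a difference of -0.13 (SE 0.04), while 13 of the 16 olfactory bulb genes were higher. In the striatum list 6 of 20 were higher (median -0.06), and 11 without the 3 libraries (median 0.01), with the opioid precursor Penk at -0.18 (SE 0.08) and, without the 3, at -0.07 (SE 0.05). The first 3 members of that list, Drd1, Drd2 and Adora2a, were on the higher side. They differed by 0.04 (SE 0.09), 0.02 (SE 0.06) and 0.04 (SE 0.10), and by 0.11, 0.08 and 0.17 without the 3 libraries. Immediate-early genes, which neuronal activity induces, were 5 higher and 20 lower of 25, and 9 and 16 without the 3, with Egr4 at -0.41 (SE 0.20) and, without the 3, at -0.26 (SE 0.15). Fos, Egr1 and Arc differed by less, at -0.02 (SE 0.12), -0.10 (SE 0.17) and -6.42e-05 (SE 0.14). Without the 3 libraries they were at -0.04, -0.07 and 0.04.

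The myelin and astrocyte lists lay on the other side of 0 without the libraries numbered 1 to 3. Of 24 myelin genes, 5 were higher and 19 lower with all libraries (median -0.07), but 20 higher and 4 lower without the 3 (median 0.06). Mbp was at 3873, 5186 and 15166 against 3618, 4890 and 19288, a log2 difference of -0.19 (SE 0.39) that became 0.08 without the 3. Aspa, an enzyme of mature oligodendrocytes, was the member of smallest p at 55.7, 84.4 and 105 against 33.01, 59.4 and 95.9, a difference of 0.39 (SE 0.19). Astrocyte genes went from 9 higher and 16 lower of 25 to 21 and 4. Oligodendrocyte precursor genes were 11 higher and 9 lower of 20, and 14 and 6 without the 3. Microglia genes were 10 higher and 15 lower of 25, and 12 and 13 without the 3, with the leukocyte tetraspanin Cd53 at 0.19 (SE 0.08) and the lysosomal protein Cd68 at -0.17 (SE 0.09). Of 22 blood cell genes only 7 were tested, and 6 of them were higher with all libraries (median 0.12) and 7 without the 3 (median 0.46), at hemoglobin levels that spanned 576 to 5938 for Hbb-bs. The part of the blood content in other differences was not tested.

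**Figure D5:**
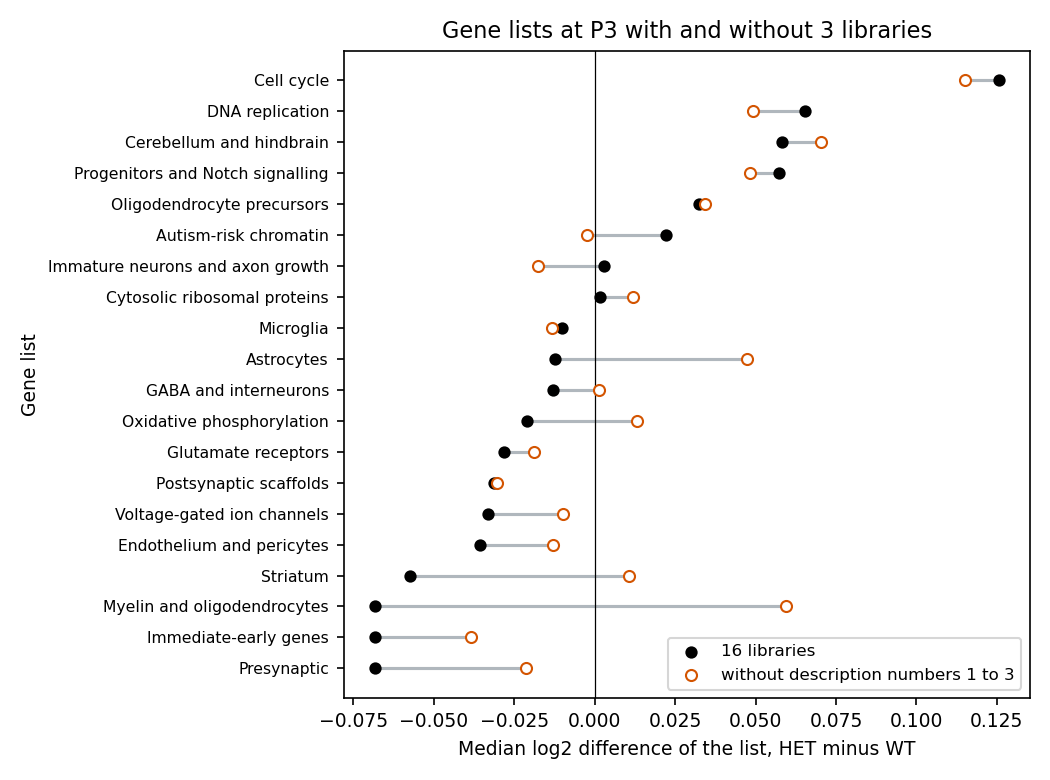
Median log2 difference between heterozygote-labelled and wild-type P3 brains for 20 gene lists, with all 16 libraries (filled) and without those numbered 1 to 3 (open). The blood cell list is not among them. The cell cycle list is at 0.13 and 0.12, while the myelin list crosses from -0.07 to 0.06.

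The 74 oxidative phosphorylation genes were 16 higher and 58 lower (median -0.02) with all libraries, and 48 and 26 without the 3 (median 0.01), and Ndufc2 of complex I differed by -0.12 (SE 0.05). The 78 cytosolic ribosomal protein genes were 40 higher and 38 lower (median 0.0017), and 51 and 27 without the 3 (median 0.01), with Rpl12 at 0.16 (SE 0.06). Of 52 autism-risk chromatin and transcription regulators, 33 were higher (median 0.02), and 26 without the 3 (median -0.0023). Within it, the chromatin remodeller Chd2 and the demethylase Kdm6a differed by 0.12 (SE 0.06) and 0.09 (SE 0.04). Chd8, Adnp and Arid1b, its first 3 members, differed by 0.03 (SE 0.05), 0.06 (SE 0.05) and -0.06 (SE 0.04). Chd8 was at -0.02 without the 3 libraries. Of 19 cytosolic aminoacyl-tRNA synthetase genes, Lars was 1 of 6 on the higher side, and Farsb differed by -0.08 (SE 0.03). In the neuregulin and ERBB list, 3 of 7 were higher, with a median of -0.0082 and 1 member lower at an unadjusted p under 0.05, beside 2.72% of all genes. Without the 3 libraries, 3 of 7 were again higher, but the median was -0.08 and 3 members were lower at that p, beside 2.3% of all genes. Its receptor Erbb4 differed by -0.06 (SE 0.06), and by -0.11 (SE 0.04) without the 3. In the Wnt and Hippo list, 21 of 40 were higher both with and without the 3, with the ligand Wnt7a, the factor Tead2 and the matrix protein Ccn2 at 0.12 (SE 0.05), 0.17 (SE 0.08) and -0.17 (SE 0.08). Of 22 tested muscle genes, which MYT1L is known to repress in neurons, 11 were higher and 11 lower, and the myosin Myh7 was at 113, 154 and 194 against 158, 187 and 216, a difference of -0.27 (SE 0.11).

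The P3 difference in Myt1l was set against those of the later ages. At P21 Myt1l was at 7742 ± 511 in heterozygote-labelled and 7210 ± 620 in wild-type libraries, and at P56 at 6536 ± 566 and 6053 ± 1190 (SD, n = 5 each). The ranges overlapped at both ages, 7341 to 8439 against 6361 to 7943 at P21 and 5918 to 7465 against 5181 to 8115 at P56. In a limma model of the 6 groups, the log2 difference at P3 exceeded that at P21 by 0.37 (SE 0.10, unadjusted p = 8.53e-04, adjusted p = 0.801) and that at P56 by 0.35 (SE 0.10, unadjusted p = 0.00156, adjusted p = 0.904). For Myt1l taken alone the contrast between ages was therefore larger than its error, but it did not pass the adjustment over all genes. The P56 values include wild-type replicate 3 at 8115, while the other P56 wild-type libraries were at 5181 to 5983. That library narrows the difference at P56 and so widens the contrast with P3, and the P56 ranges overlap without it too. Over all 18840 genes in that model, limma called 0 between P3 and P21 (0%) and 0 between P3 and P56 (0%), with 1097 and 863 genes at an unadjusted p under 0.05. Leaving out heterozygote replicate 5 of P21 gave 1 call, the germ-cell gene Tex14 (adjusted p = 0.0269), and leaving out wild-type replicate 5 of P21 gave 1 call, Gm38226 (adjusted p = 0.0469).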

How the data were processed

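RNA sequencing of 36 whole-brain samples was deposited as 1 table. The authors' deposited signal values are estimated gene counts normalized over all 36 libraries; the submitters' processing notes name Salmon 1.1.0, R 3.6.2, DESeq2 1.26.0 and GRCm38. The checks on the values were that 0.748% were whole, all of them 0, so reads were not recovered, depth is unknown, and the spread between libraries is the measure of precision. Of 19164 identifiers, 19150 matched GENCODE M21.

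The log2 of each value plus 1 was analysed for genes reaching 10 in 8 P3 libraries (in 5 libraries for models over ages). Two-sided limma tests (version 3.58.1, R 4.3.3) used the trend and robust options. A gene was called when its p, adjusted over all genes by the Benjamini-Hochberg method, was under 0.05. The script was tested on simulated data. Myt1l was also tested by exact permutation over all assignments of the libraries (numpy 2.4.6). Named genes were the MYT family, the 10 of smallest p in each direction whose mean reached 20 and whose symbol is no clone name, the 5 of smallest p without the libraries numbered 1 to 3, the 2 nearest protein-coding genes on each side of Myt1l, and of each list its first 3 members and the 3 of smallest p; Cdc25b and Fbxo21 were added after their values were seen. The text gives those that carry a list's description, and some genes under the rule are not reported here. The members and lists were chosen with earlier results of these data known. Alternatives were the scaling, filter, value added, variance model, library weights, samples in the fit, description number, replicate number and each library left out.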

Additional observations from a re-analysis of the deposited data

Results flagged for a closer look

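In 17 of 236 groups looked at (164 of single genes), 1 library lay far from the rest of its group; chance alone flags about 1 in 20 groups. Heterozygote replicate 1 at P3, numbered 3, accounted for Mbp (15166 normalized counts), Csmd3 (1035), Hes1 (239.4) and Cdc25b (773), and for the mean log2 values, relative to wild-type, of the presynaptic (0.092), astrocyte (0.284) and myelin (0.771) lists. Wild-type replicate 1 at P3, numbered 1, accounted for Erbb4 (2513) and for the endothelium (0.28) and thalamus (0.304) lists, and wild-type replicate 2, numbered 2, for the glutamate receptor list (0.104). Single libraries outside these stood apart for Trpm4 (592, P3 wild-type replicate 5), Ano2 (91.19, P3 wild-type replicate 7) and Notch1 (2655, P3 heterozygote replicate 8). The same held for the BMP, TGF-beta and hedgehog list (-0.089, P3 heterozygote replicate 2) and the hypothalamus list (-0.263, P3 heterozygote replicate 6). At P56, wild-type replicate 3 stood apart for Myt1l (8115).

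The Myt1l difference at P3 exceeded that at P21 by 0.3736 and that at P56 by 0.3516 on the log2 scale, by a test of the difference itself in the limma model of the 6 groups. Adjusted over all genes, limma's p values were 0.801 and 0.904. The P56 contrast includes P56 wild-type replicate 3 at 8115, which narrows the difference at that age.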

How the results depend on the processing

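The Myt1l difference at P3 stayed between 0.463 and 0.505 on the log2 scale and was called under all 28 alternatives run (highest limma adjusted p 1.32e-04); the values with 1 library left out ran from 0.463 to 0.498. The count of called P3 genes was 1 throughout except without limma's trend, where it was 2 because Spata32 (-0.573) passed. Between P3 and P21 the count of calls, 0, became 1 without P21 heterozygote replicate 5 and 1 without P21 wild-type replicate 5 (range with 1 library left out 0 to 1). Of 2210 values of 79 other genes, 2182 kept their direction and side of the threshold, and 27 of 5 uncalled genes changed sign, including Mbp (-0.19) and Pxdn (0.12) as well as genes closer to 0. Myt1 was 0.0015 with quantile normalization, 0.015 with equal totals, 0.015 with library weights and 0.0061 without numbers 1 to 3. Hes1 was 0.013 with equal totals, 0.0062 with weights, 0.00204 with the description number as a covariate and 0.033 without numbers 1 to 3. Without those 3 libraries Eipr1 was 0.013, Pxdn -0.014 and Mbp 0.078. With 1 library left out in turn the ranges were Myt1 -0.02514 to 0.03085, Hes1 -0.06527 to 0.06103, Eipr1 -0.05708 to 0.007205 and Mbp -0.3926 to 0.03325. The cause of these changes was not tested. Of 1008 list medians all moved by less than 1 SD between libraries, and 104 from 22 lists had the other sign, 12 of them without numbers 1 to 3.

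The labels do not say whether replicate numbers pair the samples. Deviations of same-numbered libraries correlated at -0.006 to 0.32, above 0.1 in 2 of 8 pairs, and 1 of 8 matched best both ways. Such correlations cannot show whether a litter or batch was shared. With the replicate number as a block, Myt1l (0.48, limma adjusted p 8.99e-06) was again the 1 called gene at P3.

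Read depth cannot be recovered, whole-brain RNA mixes cell types, and the allele is not given. With 8 libraries a group, log2 differences below about 0.12 in a typical gene lie within the error. That value is the unadjusted 95% interval of the median gene among those with a mean of at least 100. Larger differences also went uncalled over all genes, such as Ptpru at 0.20 (limma adjusted p 0.808) and Pold1 at 0.31 (limma adjusted p 0.903).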
